A study of Equus caballus with 4 samples.

Results

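Lumican (LUM), biglycan (BGN) and decorin (DCN), the small leucine-rich proteoglycans of the fibrous matrix, and dermatan sulfate epimerase (DSE), an enzyme that builds the sugar chains of such proteoglycans, were examined on every microarray probe that carries a RefSeq transcript of the horse gene. There were 9 such probes on 13 spots, 6 for LUM and 1 each for BGN, DCN and DSE, of 43603 probes in all, and all 9 passed the filter on dim probes. The 4 genes were picked because their log2 ratios of sarcoid over skin were high in these same arrays, so these ratios are given as a description, without a test. Each of 4 horses contributed 1 array, on which RNA of an equine sarcoid (a fibroblastic skin tumour) was labelled with Cy3 and RNA of skin distant from that tumour with Cy5. No other treatment, genotype, breed or age is given in the labels, and the descriptions of 3 samples mention embryonic stem cells, against their tissue and animal fields, which were used here. Whole tissue was measured, so more cells of a type and more RNA per cell cannot be told apart.

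A small leucine-rich proteoglycan has a core protein of leucine-rich repeats that binds collagen fibrils, and sugar chains attached to it. Decorin and biglycan carry chondroitin or dermatan sulfate chains, while lumican can carry keratan sulfate. In mice, loss of decorin or lumican gives fragile skin with irregular collagen fibrils. DSE turns glucuronic acid of a chondroitin chain into iduronic acid, the step that makes the chain dermatan sulfate.

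Per array and channel, 67.2% to 80.7% of the spots exceeded background clearly, and 0 were saturated. All 9 probes were well above background in both channels on all 4 arrays, and none of their spots carried an outlier mark. No array had the dyes swapped, so an effect of dye on a probe is part of each ratio. Intensities below are normalized and in arbitrary units. They are compared only within a probe, except that those of cell type markers are summed by list, where bright probes weigh most.

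LUM, which encodes lumican, had normalized intensities on its 5-spot probe of 110380, 39978, 74909 and 121779 in the sarcoids of horses 1 to 4, against 2026, 4452, 3351 and 10415 in their skin. The lowest sarcoid lay 3.84 times above the highest skin, so the tissues did not overlap. The log2 ratio was 5.77, 3.17, 4.48 and 3.55 in horses 1 to 4, with a mean of 4.24 ± 1.16 (SD, n = 4). On this probe LUM was the highest of all 19607 targets tested, a target being a gene or, where unnamed, a transcript. Its other probes read lower, with a mean over all 6 of 3.49, and no rank was taken on them. BGN, DSE and DCN ranked 11, 115 and 173.

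BGN, which encodes biglycan, a proteoglycan that binds collagen and can act as a signal to innate immune receptors, had intensities of 338336, 117317, 119901 and 169247 in the sarcoids and of 21477, 17477, 16677 and 26504 in the skin. The tissues again did not overlap, and horse 1 stood well above the other sarcoids. The log2 ratio was 3.98 in horse 1 and 2.75, 2.85 and 2.67 in horses 2 to 4, with a mean of 3.06 ± 0.61 (SD, n = 4).

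DCN, which encodes decorin, a collagen-binding proteoglycan that also binds transforming growth factor beta, had intensities of 391078, 286191, 381545 and 293710 in the sarcoids and of 68027, 117368, 109909 and 85949 in the skin. The lowest sarcoid was 2.44 times the highest skin. The log2 ratio was 2.52, 1.29, 1.80 and 1.77 in horses 1 to 4, a mean of 1.84 ± 0.51 (SD, n = 4).

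DSE had intensities of 6738, 3267, 9479 and 3995 in the sarcoids, against 1233, 1099.8, 1571 and 1179.97 in the skin. Sarcoids and skin did not overlap, the lowest sarcoid being 2.08 times the highest skin. Its log2 ratio was 2.45, 1.57, 2.59 and 1.76 in horses 1 to 4, a mean of 2.09 ± 0.50 (SD, n = 4), and DSE was the 1 gene of the 4 for which horse 3 rather than horse 1 was highest. That order depended on the processing. Horse 1 stood above horse 3 with each array centred on its median (2.43 against 2.25) and without normalization (2.47 against 2.01). It also did with the background model fitted to all spots (2.45 against 2.24).

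**Figure D1:**
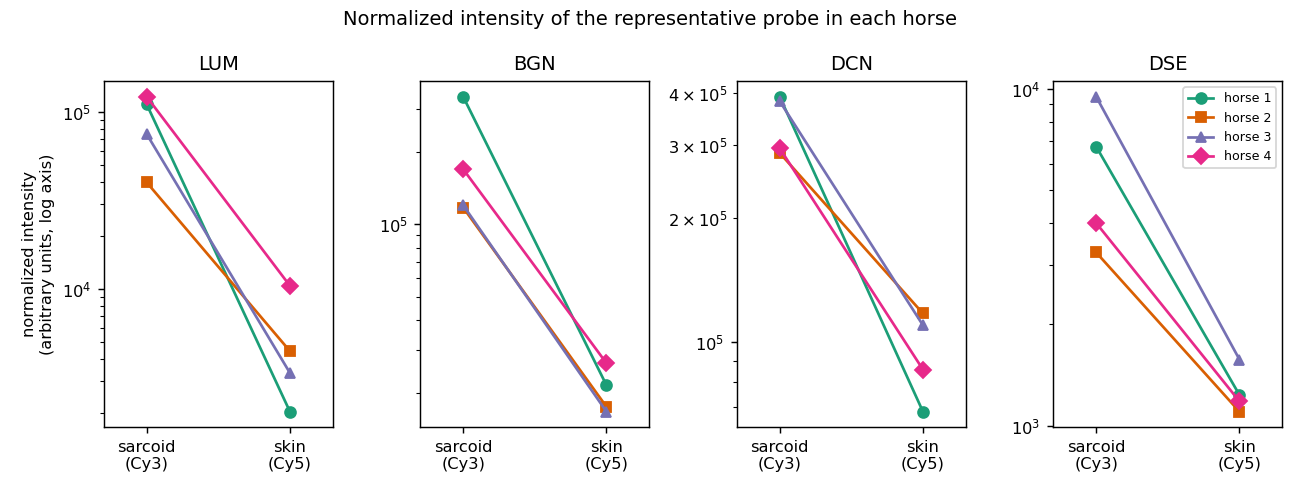
Normalized intensity (arbitrary units, log axis, a scale for each gene) of the probe that represents LUM, BGN, DCN and DSE, sarcoid at the left and skin at the right, with 1 line per horse. Every line falls towards the skin, and in no panel does a sarcoid value lie below a skin value. The genes were chosen for high ratios in these arrays, so this is a description.

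In limma's moderated test all 4 genes were called higher, against 5.84% of the 19607 targets at a Benjamini-Hochberg adjusted p under 0.05. All 9 probes had a log2 ratio above 0 on all 4 arrays, against 17.8% of the targets. Since the genes were chosen from this contrast, nothing is read from either count. The same holds for the lack of overlap between the tissues, for which no share over all targets is given, here or below. The tissues also did not overlap for some genes that were not called, such as FMOD and COL2A1 (limma adjusted p = 0.0927 and 0.0586).

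Within each array the 4 genes kept part of an order. LUM on its 5-spot probe exceeded BGN in 4 of 4 horses, by a mean of 1.18 ± 0.65 on the log2 scale, and DCN by 2.40 ± 0.70 (SD, n = 4). BGN exceeded DCN by 1.22 ± 0.28 and DSE by 0.97 ± 0.54, in 4 of 4 horses each. The order of BGN and DSE depended on the processing. BGN lay below DSE in horse 3 with each array centred on its median (1.91 against 2.25) and without normalization (1.67 against 2.01). DCN and DSE differed by less than their spread after loess, with a difference of -0.25 ± 0.40 for DCN minus DSE that was above 0 in 2 of 4 horses. With each array centred on its median, DSE lay above DCN in 4 of 4 horses (means of 1.77 and 0.89). Without normalization DSE also lay above DCN in 4 of 4 horses (means of 1.44 and 0.55). The ratio of horse 1 lay above the gene's own mean for all 4 genes, by 1.53 for LUM, 0.92 for BGN, 0.68 for DCN and 0.36 for DSE on the log2 scale, and that of horse 2 lay below it for all 4. Which tissue varied more between horses depended on the gene and, for LUM, on the probe. For BGN the SD of log2 intensity was 0.71 over the sarcoids and 0.31 over the skin samples, and for DSE it was 0.70 and 0.22. For DCN it was 0.24 over the sarcoids and 0.36 over the skin samples. For LUM it was 0.73 over the sarcoids and 0.99 over the skin samples on the 5-spot probe. On the other LUM probes it was 0.82 to 0.84 over the sarcoids and 0.34 to 0.45 over the skin samples.

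The probes of LUM differed among themselves. The 5 spots of the 5-spot probe repeated closely, with an SD of the log2 ratio between spots of 0.0098 to 0.046 within an array. The other 5 probes, with 1 spot each, had mean log2 ratios between 3.26 and 3.43, and in each horse they lay within a narrow range of each other (2.31 to 2.40 in horse 4, the narrowest of the 4, and 4.41 to 4.77 in horse 1, the widest). The 5-spot probe exceeded their median in every horse, by 1.19, 0.55, 0.76 and 1.18 in horses 1 to 4. On those 5 probes the order of LUM and BGN was no longer the same in all horses: in horses 2 and 4 they stood at 2.58 to 2.68 and 2.31 to 2.40, below the 2.75 and 2.67 of BGN. The mean over all 6 probes of LUM was 3.49.

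**Figure D2:**
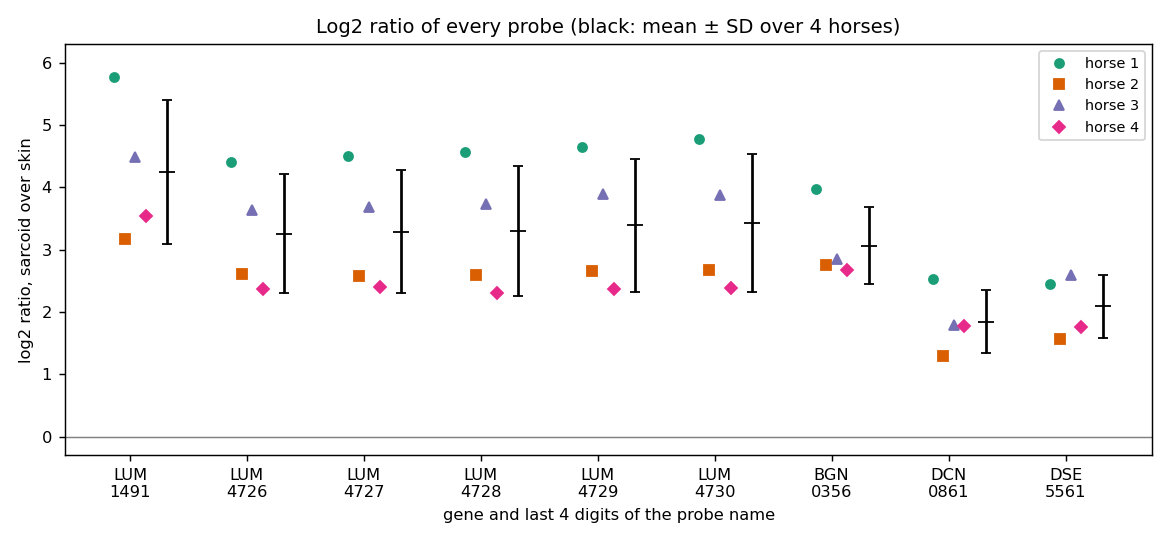
Log2 ratio of sarcoid over skin (y axis) for each of the 9 probes (x axis), with 1 symbol per horse and the mean ± SD in black. All values lie above 0, the 5 single-spot LUM probes lie close together, and the 5-spot probe, at a mean of 4.24, lies above them.

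The horses were also ordered differently by these probes. In the sarcoid channel horse 4 lay 0.61 above the 5-spot probe's own mean on the log2 scale, while on the other 5 probes it lay between -0.48 and -0.41. In the skin channel horse 4 was the highest on all 6 probes, by 1.31 above the mean on the 5-spot probe and by 0.46 to 0.64 on the others. Horse 1 was the lowest skin sample on the 5-spot probe, at -1.06, but was between -0.22 and -0.03 on the others. Sequences of the probes were not used here, and what part of the transcript each one reads was not examined.

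**Figure D3:**
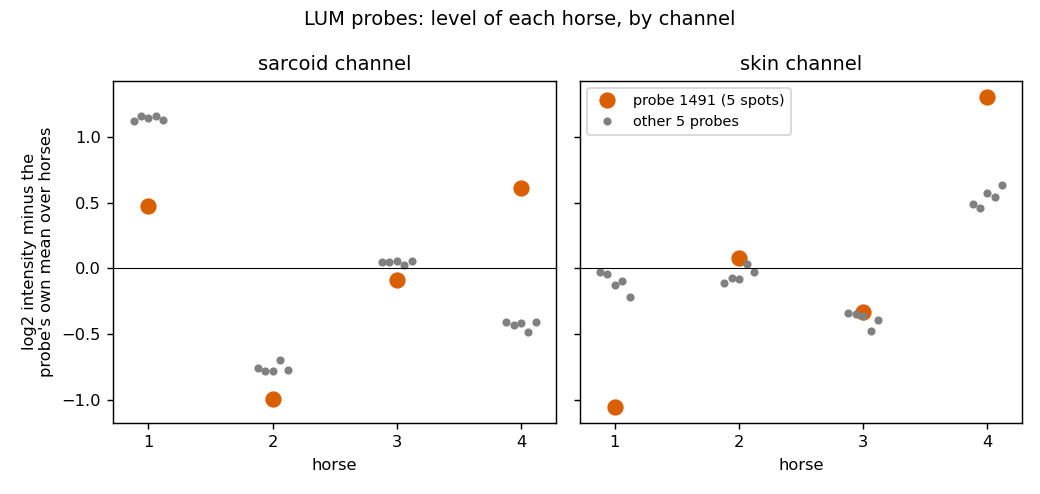
Log2 intensity of each LUM probe in each horse (x axis) relative to that probe's own mean over the horses (y axis), in the sarcoid channel at the left and the skin channel at the right. In the sarcoid channel horse 4 is above 0 on the 5-spot probe, at 0.61, and below 0 on the other 5.

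The size of the ratios depended on how the dyes were balanced, most of all for DCN, whose probe was among the brightest on the arrays (8 of the 33864 kept probes were brighter on average). Before normalization between the dyes the log2 ratio of DCN was 1.70, -0.05, 0.17 and 0.39 in horses 1 to 4. In horse 2 its raw median signal was 181008 in the sarcoid and 187590 in the skin. Loess, which centres the ratios of probes of like brightness, added 0.82, 1.34, 1.62 and 1.38. It added a mean of 0.86 to LUM, 1.08 to BGN and 0.66 to DSE, and their ratios were above 0 in all 4 horses without it as well. Over all probes the median log2 ratio before normalization was 0.04, -0.43, -0.24 and -0.70 in horses 1 to 4. With each array centred on its median and no loess, DCN averaged 0.89 and was no longer among the called targets, while BGN averaged 2.32, LUM 3.72 and DSE 1.77. With Agilent's own dye-normalized signals the means were 4.25 for LUM, 3.15 for BGN, 1.95 for DCN and 2.23 for DSE.

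**Figure D4:**
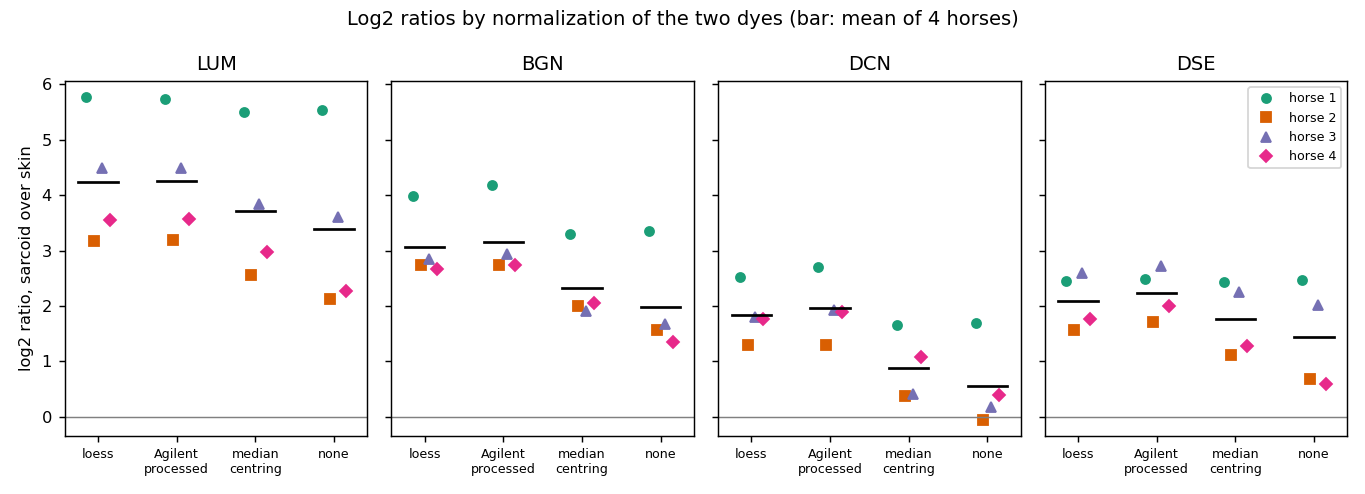
Log2 ratio of sarcoid over skin (y axis) for LUM, BGN, DCN and DSE under loess, Agilent's processed signals, median centring and no normalization (x axis), with 1 symbol per horse and a bar at the mean. LUM, BGN and DSE stay above 0 throughout, while DCN reaches -0.05 in horse 2 without normalization.

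In the RefSeq table of the horse assembly TB-T2T, LUM and DCN are next to each other on chromosome 28, with KERA and EPYC, which encode the related proteoglycans keratocan and epiphycan, on the other side of LUM. BGN is on chromosome X and DSE on chromosome 10. None of the other genes within 3 places of the 4 could be given values by name.

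Few relatives of the 4 genes carried a name on this array. Of 100 other genes of proteoglycans, of the enzymes and transporters that build their chains and of chain degradation, 6 were measured, of which 1 rose, 1 fell and 4 did not pass (5.84% of all targets were called higher and 9.9% lower). Their median log2 ratio was 0.23, against 0.00 over all targets. No other enzyme of chondroitin, dermatan or keratan sulfate chains and no enzyme of glycosaminoglycan degradation was among the 6.

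Of the core proteins, FMOD, which encodes fibromodulin, a relative of lumican, had intensities of 4282, 4171, 13167 and 4939 in the sarcoids and of 2199, 3607, 4121 and 3489 in the skin. The tissues just did not overlap, and the log2 ratio of FMOD was 0.84 ± 0.64 (SD, n = 4; limma adjusted p = 0.0927), above 0 in 4 of 4 horses, with its 7 probes between 0.23 and 0.93. OMD, which encodes osteomodulin (osteoadherin), was at 0.72, 2.23, -1.83 and 3.06 in horses 1 to 4, so that horse 3 went the other way (limma adjusted p = 0.439). SDC2, which encodes the cell surface proteoglycan syndecan 2, rose by 1.04 ± 0.60 (limma adjusted p = 0.0468). The call of SDC2 did not hold with any 1 of the 4 horses left out (limma adjusted p = 0.057 to 0.159), and its 4 probes ranged from 0.50 to 1.04, with a mean of 0.72 that was not called (0.0889). It was not called either at 0.61 on median centring (limma adjusted p = 0.195), at 0.28 without normalization (0.548), at 1.05 with the background model fitted to all spots (0.15) or without the filter on dim probes (0.0689). CD44, the hyaluronan receptor, which can carry chondroitin sulfate, was at -0.69 ± 1.04 (limma adjusted p = 0.31).

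Of the genes that supply the chains, SLC26A2, the sulfate transporter that feeds sulfation of the chains, went opposite to the 4 genes. It had intensities of 323, 288, 212 and 192 in the sarcoids and of 961, 871, 794 and 607 in the skin. All sarcoids lay below all skin samples, and SLC26A2 fell by 1.68 on the log2 scale, with an SD of 0.15 (-1.57, -1.59, -1.91 and -1.66 in horses 1 to 4; limma adjusted p = 0.0011), with its 2 probes at -1.68 and -1.30. The call held with each horse left out in turn. It did not hold when the background model was fitted to all spots, outlier spots included, where SLC26A2 was at -1.06 (limma adjusted p = 0.177); all 4 proteoglycan and epimerase genes were still called in that order. FAM20B, the kinase that phosphorylates xylose at the start of the chain, was at -0.38 ± 0.31 (limma adjusted p = 0.167).

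Of 6 measured proteases and inhibitors that process proteoglycans, 1 rose and 5 did not pass, with a median of -0.19. TIMP1, which inhibits matrix metalloproteinases, rose by 2.14 ± 0.80 (SD, n = 4; limma adjusted p = 0.012; 0.0511 without horse 3, 0.0724 at 2.12 with the background model fitted to all spots, and 0.08 at 1.27 without normalization). ADAMTS4, a protease that cleaves aggrecan and versican, was at 0.54 ± 0.53, MMP3 at -0.63 ± 1.91, TIMP3 at -0.39 ± 0.55, GZMB at -0.31 ± 2.17 and MMP9 at -0.08 ± 0.51.

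Of 10 measured ligands and receptors that decorin, biglycan or lumican are known to bind, or their coreceptors, 1 fell, none rose and 9 did not pass, with a median of -0.21. MET, the hepatocyte growth factor receptor, to which decorin binds, was at -4.59, -2.09, -5.36 and -1.11 in horses 1 to 4 (limma adjusted p = 0.0434). Its 3 probes ran from -3.29 to -1.08, with a mean of -1.84. The call of MET was lost without horse 1, 2 or 3 (limma adjusted p = 0.153, 0.08 and 0.104) and when dim probes were kept (0.0729). It was also lost with the background model fitted to all spots or with outlier spots kept, at -2.27 in both (limma adjusted p = 0.191). CD14, the coreceptor of Toll-like receptors, was at 1.14 ± 1.12, the growth factor IGF1 at 1.03 ± 0.91, BMP4 at -0.59 ± 0.51, TGFB1 at 0.54 ± 0.62 and TNF at -0.28 ± 0.71. Without horse 3 CD14 passed at 1.66 (limma adjusted p = 0.0291), and without horse 4 TGFB1 passed at 0.84 (0.0272). IGF1 passed at 1.60 with Agilent's processed signals and with the authors' value table (limma adjusted p = 0.0355 and 0.0356), and BMP4 passed at -1.14 without normalization (0.0403).

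Of 7 measured fibrillar collagens and fibril partners 4 rose, 1 fell and 2 did not pass, with a median of 1.12. COL5A2, a chain of the collagen that regulates fibril assembly, had intensities of 383, 318, 475 and 339 in the sarcoids and of 87.5, 88.2, 87.5 and 99.0 in the skin, and rose by 2.05 ± 0.30 (SD, n = 4; limma adjusted p = 0.00139). Its skin intensities were low, and the size of its ratio depended on the processing. It was at 1.13 with the background model fitted to all spots (limma adjusted p = 0.264). With Agilent's processed signals or the authors' value table it was at 3.58 (limma adjusted p = 0.000496). COL14A1, a collagen that decorin can link to fibrils, rose by 3.04 ± 0.98 on its brightest probe. That was the highest of its 6 probes, of which the lowest was at 1.27, and their mean was 1.73 (limma adjusted p = 0.0197). SPARC, a collagen-binding protein, rose by 2.99 ± 1.20 and COL15A1 by 1.04 ± 0.31. COMP, which binds fibrillar collagens, fell by 2.02 on the log2 scale, and THBS2 was at 1.12 ± 1.18. COL2A1, the collagen of cartilage and the last gene of the list, named after its values were seen, was at 0.91 ± 0.57 (limma adjusted p = 0.0586), and passed at 2.32 with Agilent's processed signals or the authors' value table (0.0142) and at 0.98 on median centring (0.0288). With the background model fitted to all spots COL14A1, SPARC and COL15A1 kept similar log2 ratios of 2.73, 2.94 and 1.00 but were not called (limma adjusted p = 0.0963, 0.0767 and 0.0648). COMP was at -1.27 there and was not called either (0.14). SPARC was also lost without horse 1, 2 or 3 (limma adjusted p = 0.0651, 0.051 and 0.0551), COL15A1 without horse 1 or 2 (0.0521 and 0.0567) on median centring (0.0812) and without normalization (0.37, with an adjusted p of 0.458), and COMP without horse 4 (0.0698).

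**Figure D5:**
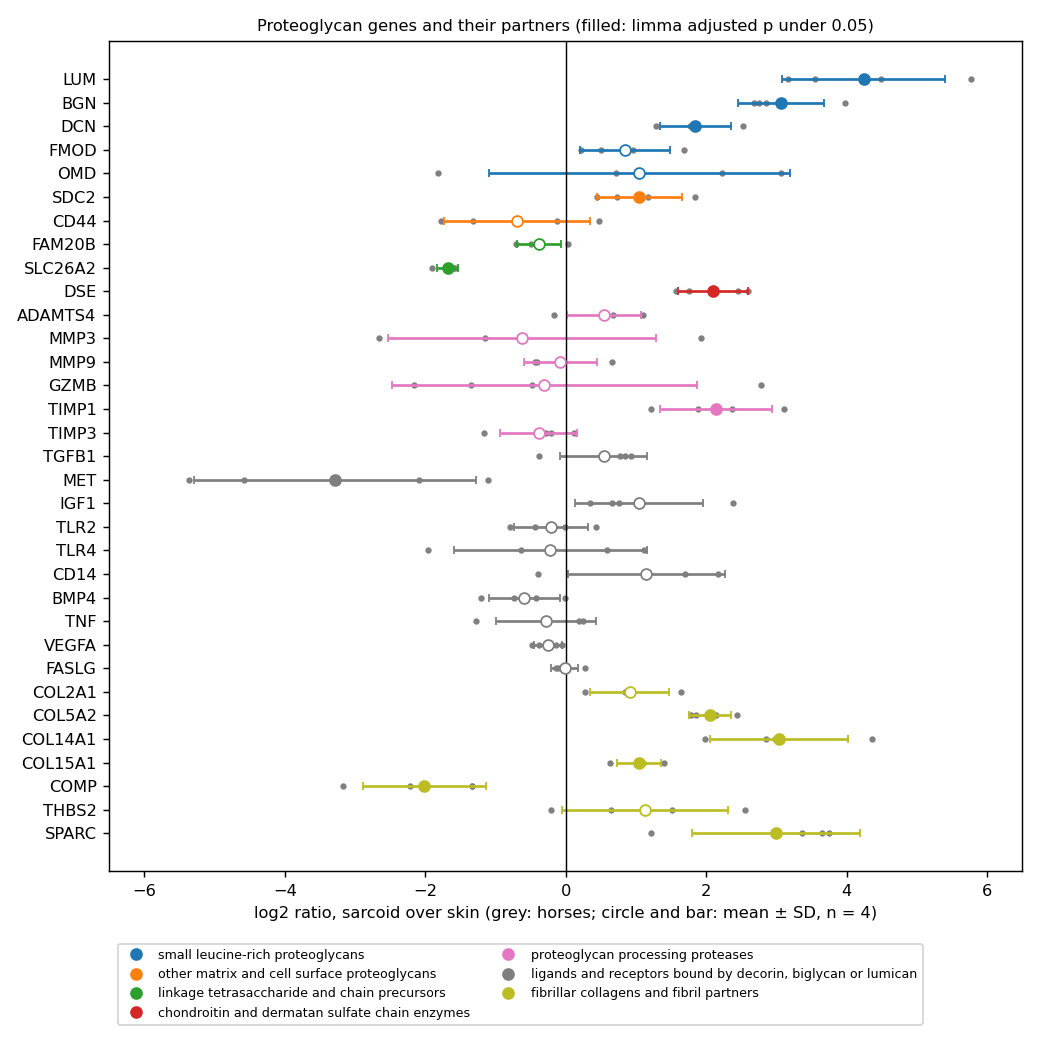
Mean log2 ratio of sarcoid over skin ± SD (x axis, n = 4; grey points are the horses) for the measured genes of the proteoglycan, chain synthesis, processing, ligand and fibril lists (y axis), filled where the limma adjusted p was under 0.05. SLC26A2, at -1.68, MET and COMP lie on the lower side, opposite to LUM, BGN, DCN and DSE, whose filled marks are a description.

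The genes with a symbol whose 4 log2 ratios lay nearest to each member, by root-mean-square difference over the 4 arrays were looked up among 787 candidates. For LUM they were COL14A1, SPARC and SERPINF1, at differences of 1.26, 1.75 and 1.77, on the 5-spot probe of LUM, which read above its other probes. For BGN they were COL14A1 (0.45), the selenium carrier SELENOP (0.67) and the adhesion molecule VCAM1 (0.76). For DCN they were the chaperone HSP90B1 (0.30), the intermediate filament gene VIM (0.34) and TIMP1 (0.41). For DSE they were COL5A2 (0.23), TIMP1 (0.39) and the hyaluronan-binding TNFAIP6 (0.41). The distance counts the height of the ratios, so genes chosen for high ratios lie nearest to other high genes. By mean log2 ratio COL14A1, SPARC and SERPINF1 ranked 3, 4 and 5 among the 791 targets with a symbol. No shared behaviour across horses is read from these lists. The distances also depend on the probes used, as a comparison chosen after seeing the data showed. With LUM at the mean of its probes, COL14A1 was at 0.70 from it on the brightest COL14A1 probe and at 1.78 on the mean of the COL14A1 probes. On probe means for all genes, the nearest to LUM was SERPINF1 (0.99) and the nearest to BGN was SELENOP (0.64), with COL14A1 at 1.37 from BGN. HSP90B1 (0.30) and COL5A2 (0.23) were then the nearest to DCN and DSE, at unchanged distances. DSE and COL5A2 have 1 probe each, so probe means could not change their distance, and nothing is read from this. With Agilent's processed signals COL5A2 averaged 3.58 and DSE 2.23.

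Markers of cell types moved in different directions, where 5.84% of all targets were called higher and 9.9% lower. Of 13 fibroblast markers 3 were measured and all 3 rose, with a median of 1.58, and their summed intensity was 147798 to 200720 in the sarcoids and 35584 to 69812 in the skin. Most of that sum was VIM, at 138900 to 166542 in the sarcoids and 33064 to 65768 in the skin. Of 14 keratinocyte markers 2 were measured and both fell, with a summed intensity of 1238 to 2746 in the sarcoids and 37089 to 121505 in the skin. All 4 measured gland and hair follicle markers fell, with sums of 4036 to 6879 in the sarcoids and 300446 to 419550 in the skin, made up mostly of LATH. Of 5 leukocyte markers 1 rose and of 2 endothelial markers none passed. Of 9 melanocyte, muscle and erythrocyte markers 5 fell. No measured fibroblast, keratinocyte or gland marker was below background on all arrays of a tissue. The part of cell type makeup in the ratios of LUM, BGN, DCN and DSE was not tested.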

How the data were processed

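Agilent Feature Extraction 11.5.1.1, named in the submitters' processing notes, gave the deposited files. They hold median intensity values of spot and local background for both dyes, not log-transformed, per the file headers. Processed intensity has the background subtracted and the dyes normalized, per the file headers. As deposited, the log10 ratio is of Cy5 over Cy3, and the authors' value table holds the same log10 ratio (largest difference 0). Other columns are flags of 0 or 1 in the deposited files. Labelling used 100 ng of RNA, per the labels.

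Outlier spots were removed ahead of the background fit, an order settled with its effect on the calls known. Background was corrected with normexp (offset 50), followed by loess within arrays, in limma 3.58.1 under R 4.3.3. A probe was kept where at least 3 of 4 arrays had it well above background in either channel, and the brightest probe represented a target. Channel intensities were set on 1 scale by quantile normalization of the average intensity, which leaves ratios as they were. The 4 ratios of a target were compared with 0 (lmFit, eBayes, two-sided), and p-values were adjusted by Benjamini-Hochberg over 19607 targets, of which 791 had a symbol. The pairing by horse lies inside the ratio. Symbols came from RefSeq transcript accessions, and transcripts with Ensembl accessions stayed unnamed. The genes and lists were chosen with earlier results of these data known. Named outside the 4 genes are every measured gene of the proteoglycan and chain lists, up to 6 of each partner list (the called ones first, by size) and the 3 nearest genes of each member. In simulated ratios with the spread of these targets, 38 of 100 targets with a log2 change of 1 and 72 of 100 with a log2 change of 2 were recovered, with 5 false calls. Only 100 of 19607 targets were changed there, while the data gave 1146 higher and 1941 lower calls. The Benjamini-Hochberg adjustment depends on that share, so these values do not give the recovery in the data. The number of arrays limits the precision.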

Additional observations from a re-analysis of the deposited data

Results flagged for a closer look

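Of 38 probes or genes checked for 1 horse far from the other 3, 4 stood out, where chance gives about 1 in 20. BGN was at 3.98 and FASLG at 0.27 on the log2 ratio scale in horse 1, and SPARC was at 1.20 and TGFB1 at -0.38 in horse 4, each apart from the other 3 horses.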

How the results depend on the processing

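LUM, BGN, DCN and DSE kept a positive mean in all 15 alternatives, from 3.38 to 4.60, 1.98 to 3.19, 0.55 to 2.03 and 1.44 to 2.27 on the log2 scale. These were not 15 separate checks. Quantile normalization of the average intensity and both changes of the filter on dim probes left their means as they were. The mean over all probes moved LUM alone. The authors' value table gave the same means as Agilent's processed signals. Keeping outlier spots gave the same means as the background model fitted to all spots. Leaving out each horse gave 3.73 to 4.60, 2.76 to 3.19, 1.62 to 2.03 and 1.93 to 2.27. Median centring gave 2.32 for BGN and 0.89 for DCN, and no normalization, chosen after seeing the data, gave 1.98, 0.55 and 1.44 for BGN, DCN and DSE; DCN was not called under these 2 settings. The mean over all LUM probes made LUM minus DCN 1.64. Over all targets, 1146 were higher and 1941 lower. There were 93 and 147 with the background model fitted to all spots, 94 and 147 with outlier spots kept, 1887 higher with Agilent's processed signals, 1883 higher with the authors' value table and 614 higher on median centring. Without normalization, where the median of all targets moved to -0.43, 97 were higher and 2968 lower. At 2-fold or more 713 were higher and 1287 lower. Leaving out 1 horse left 389 to 821 higher and 1071 to 1412 lower, with 389, 582 and 671 higher without horses 1, 2 and 3. The share of calls on the higher side was 37.1%, and it was 48.2% with Agilent's processed signals, 18.7% on median centring and 3.16% without normalization. Of the 2 called genes of the proteoglycan and chain lists, 0 were called with the background model fitted to all spots or with outlier spots kept, and 1 on median centring, without the filter on dim probes, with the mean of all probes, without normalization and with any 1 horse left out (1 to 1). With the channels modelled separately, 929 targets were higher and 1782 lower without a replicate block, and 1569 and 2516 with the correlation within spots as replicate block; 2 list genes were called in both. The causes were not tested. Signal over background did not limit the 9 probes.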

Other observations

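OMD, the osteomodulin gene, was below 0 in horse 3 alone, at -1.83, and the endothelial markers PECAM1 and VWF, picked after their values were seen, were at -1.84 and -1.95 in that horse and at 2.29 and 1.59 in horse 2, where OMD was at 2.23. In horse 4, where OMD was highest at 3.06, PECAM1 and VWF were only at 0.77 and 0.10. In horse 1 they were at 0.42 and 0.03, with OMD at 0.72. A relation between these genes was not tested. LUM, BGN, DCN and DSE were all above 0 in horse 3.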
